A study of Ovis aries with 30 samples.

Results

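The genes described here encode enzymes that cut, cross-link and modify the extracellular matrix, their inhibitors, and the glycoproteins and proteoglycans that build it together with the collagens. They are 5 matrix metalloproteinases (MMP2, MMP9, MMP11, MMP14 and MMP19), 3 inhibitors (TIMP1, TIMP2 and TIMP3), 4 ADAMTS proteases (ADAMTS1, ADAMTS4, ADAMTS5 and ADAMTS9), the plasminogen activator PLAU, 4 cross-linking enzymes (LOX, LOXL1, LOXL2 and TGM2) and 4 genes of collagen modification and folding (PLOD1, PLOD2, P4HA1 and SERPINH1). The structural members are 8 adhesive and matricellular glycoproteins (FN1, SPARC, POSTN, TNC, THBS1, THBS2, CCN1 and CCN2), 3 elastic fibre genes (FBN1, FBLN1 and ELN), 4 proteoglycans (DCN, LUM, BGN and VCAN) and 7 basement membrane genes (LAMA2, LAMA4, LAMB1, LAMC1, NID1, HSPG2 and AGRN). The genes were chosen by name: 45 genes were listed, of which 43 had a row among the 28524 genes of the count table, and ADAMTS2 and P4HA2 were not analysed here. RNA had been sequenced from brown adipose tissue (BAT) around the kidneys and from thyroid tissue of 15 lambs of the Romney breed, all newborn. A group of 6 was penned indoors with their dams for 2 days at 4 °C (cold), another 6 were penned in the same way for 2 days at 20 to 22 °C (ambient temperature, AT), and 3 controls were sampled at about 24 h after lambing. All lambs were born outdoors and raised by their dams. No group carried a genetic change or received a drug. Since the controls were about 2 days younger than the treated lambs and had not been held in pens, age, housing and temperature cannot be told apart where a group is set against them, and age and housing are matched only between cold and AT lambs. Both treated groups are compared with the same controls. The study left 1 control out of both tissues for outlier counts, here called control 2, so that the values below rest on controls 1 and 3 unless control 2 is named.

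The extracellular matrix is laid down mainly by fibroblasts, mural cells and endothelial cells, and by adipocytes around themselves. Matrix metalloproteinases and ADAMTS proteases cut its proteins, the TIMP inhibitors hold these enzymes in check, and urokinase activates plasminogen upstream of them. Inside the cell, collagen chains are hydroxylated by the PLOD and P4HA enzymes and folded with the help of SERPINH1. Outside the cell, lysyl oxidases and transglutaminase join the fibres. Fibronectin, SPARC, thrombospondins and CCN proteins link cells to the fibres, fibrillin and elastin form elastic fibres, decorin and lumican coat collagen fibrils, and laminins, nidogen, perlecan and agrin form the basement membrane. In growing adipose tissue every adipocyte has a basement membrane of its own, and in the thyroid each follicle rests on such a membrane.

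The libraries held 31556500 to 37025998 counts in BAT and 25062784 to 30124871 in thyroid tissue. The 43 matrix genes took 0.147 to 0.830% of the counts of a BAT library and 0.174 to 0.436% of a thyroid library. In BAT, the 2 most abundant genes of the tissue took 43.8 to 76.5% of all counts, which left less depth for the others. The labelled tissues carried most of the genes listed as their markers, with each tissue scaled on its own. Normalized counts of UCP1, the uncoupling protein of brown fat, had a median of 8266 in BAT (195 to 87348) and 16.7 in thyroid tissue. Those of TG, the precursor of thyroid hormone, had 44.4 in BAT and 2063750 in thyroid tissue. PPARGC1A, listed for brown adipocytes, had medians of 598 in BAT and 757 in thyroid tissue. As the scales of the tissues differ, values this close do not show which tissue had more of it. Exceptions were found among the follicular markers, where DIO1 had 540 in BAT and 29.1 in thyroid tissue, and SLC26A4 had 0 in both. The other markers of these lists had the higher median in their own tissue. Thyroid library AT 3 stood apart. Its summed normalized count of 8 skeletal muscle markers was 3381660, against 294591 in control 1 and 122 to 4055 in the other 13 thyroid libraries, and it was the highest of the 15 thyroid libraries for 21 of the 43 matrix genes. Control 1 enters every comparison of treated thyroid tissue with controls. The part of muscle in the values of control 1 was not tested. BAT control 2 was the highest of the 15 BAT libraries for 14 matrix genes, with 6491 normalized counts of TIMP3 against 171 to 639 elsewhere and 16183 of THBS1 against 460 to 2119. Thyroid control 2 was the lowest thyroid library for 16. As these are bulk tissues, fewer cells of a type and less RNA per cell cannot be told apart in anything that follows.

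Normalized counts are counts divided by a size factor from the reference genes ACTB, RPL19 and HUWE1. A gene was called where its log2 fold change (log2FC) was at least 1 in size with an edgeR adjusted p below 0.05, adjusted over all genes tested in the tissue. With 10 or more reads in at least 10 libraries asked for, 42 matrix genes were tested in each tissue: MMP9 was too low in BAT and LOXL2 in thyroid tissue. Over the 6 treatment comparisons, 24 calls were made in 13 matrix genes, 6 of them in BAT and 10 in thyroid tissue, with TIMP3, ADAMTS1 and ADAMTS4 called in both.

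SPARC, a glycoprotein that binds collagen, was the most abundant member of the set in both tissues. Per kilobase of annotated exon, with both tissues on a common scale and 14 libraries in each, its median normalized count was 11536 in BAT and 4240 in thyroid tissue. In BAT it was followed by ELN (elastin) with 6658, DCN (decorin) with 3647, SERPINH1 with 2311 and LAMA4 (laminin alpha 4) with 1773. In thyroid tissue the next were SERPINH1 with 2260, TIMP2 with 2004, DCN with 1964 and TIMP3 with 1388. The levels were concentrated in few genes: the 5 highest members held 52.9 to 64.8% of the summed count per kilobase of the set in the BAT libraries and 55.5 to 78.7% in the thyroid libraries.

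The make-up of the set by role differed between the tissues. Elastic fibre genes held a median of 15.4% of the set in BAT (lowest library 9.12%, highest 27.2%) and 2.43% in thyroid tissue (1.22 to 3.42%), and the ranges did not overlap. The TIMP inhibitors held 8.07% in BAT (4.38 to 11.6%) and 19.5% in thyroid tissue (13.1 to 45.7%), without overlap other than by BAT control 2, which is not among these libraries and had 21.4%. In thyroid tissue TIMP2 alone ranged from 3.00 to 34.0% of the set. SPARC held 19.3 to 34.4% in BAT and 11.5 to 26.4% in thyroid tissue, which overlapped. The ADAMTS proteases made up 0.746 to 3.95% in BAT and 0.382 to 1.06% in thyroid tissue, and the matrix metalloproteinases 1.47 to 9.69% and 0.790 to 2.10%, the highest of them in BAT library AT 1 through MMP2.

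**Figure D1:**
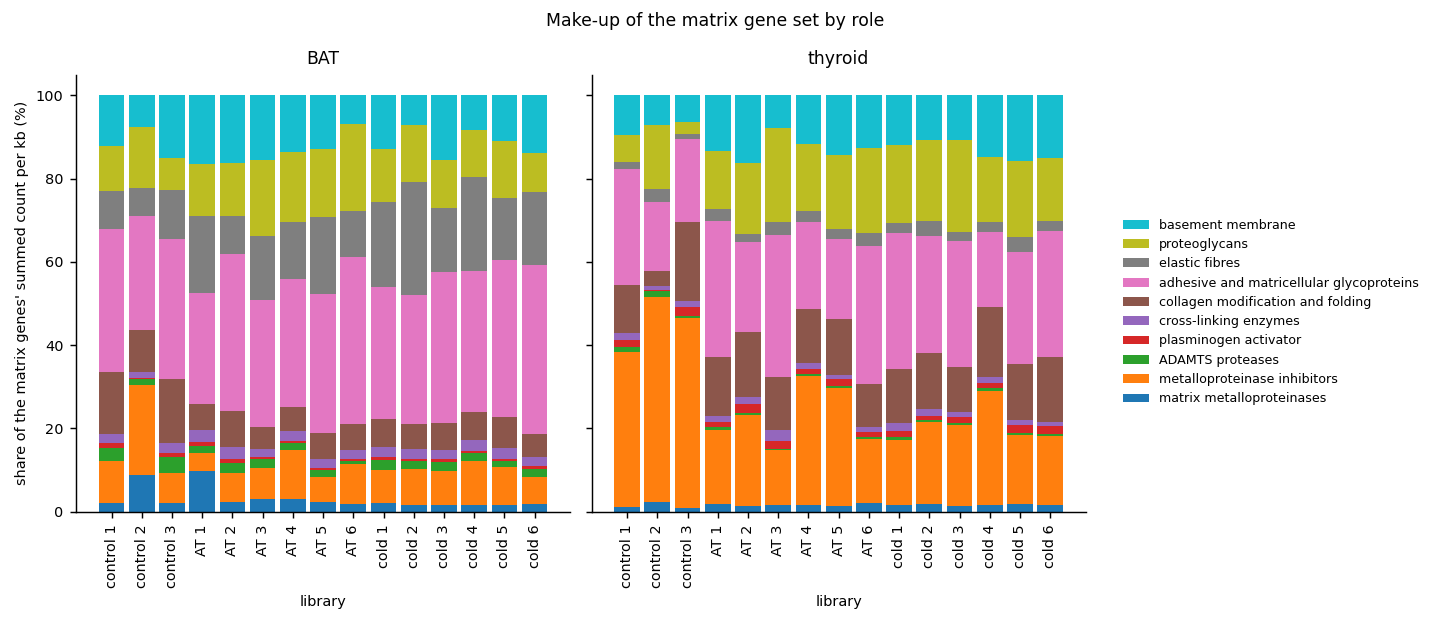
Share of the summed normalized count per kilobase of the 43 matrix genes held by each role (percent, y axis) in each of the 15 BAT and 15 thyroid libraries (x axis), control 2 included. The elastic fibre segment has a median of 15.4% in BAT and 2.43% in thyroid tissue, and the TIMP inhibitor segment 8.07% and 19.5%, over the 14 libraries other than control 2.

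BAT was compared with thyroid tissue in a single fit over 28 libraries, 2 from each of 14 lambs. Of the 43 matrix genes, 31 were called higher in BAT and 3 lower, against 25% of 17021 genes called higher and 14.2% called lower. The median log2FC of BAT over thyroid was 1.53 for the matrix genes and 0.24 for all genes, and 0.07 for all genes with sizes set by the trimmed mean of M-values (TMM), a scaling over all genes. Within lambs, 18 matrix genes were higher in BAT in all 14, AGRN was lower in all 14, and 24 were mixed, where 25.8% of all genes were higher and 14.2% lower in every lamb. For 12 of them, among which were MMP14, ADAMTS1, ADAMTS9, FN1, POSTN, ELN, LAMA4 and HSPG2, every BAT library lay above every thyroid library, as for 11.4% of all genes.

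The widest difference was that of ELN, with 2699, 6658 and 20040 normalized counts per kilobase in the lowest, median and highest BAT library and 210, 350 and 653 in thyroid tissue. No library of the tissues overlapped, and ELN was 18-fold higher in BAT (log2FC 4.17, SE 0.29, edgeR adjusted p = 1.98e-12). ADAMTS9, a protease that cuts versican and aggrecan, had 241, 424 and 765 in BAT and 20.1, 26.1 and 71.7 in thyroid tissue, a 13.3-fold difference (log2FC 3.74, SE 0.18, edgeR adjusted p = 8.14e-16). FN1, fibronectin, had 241, 858 and 3156 in BAT and 23.3, 52.5 and 201 in thyroid tissue, a 12.3-fold difference (log2FC 3.62, SE 0.43, edgeR adjusted p = 5.2e-08). The lowest BAT library of FN1 was above the highest thyroid library. LAMA4 was also higher in BAT (log2FC 3.01, SE 0.13) and among the least variable of the set.

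In the opposite direction, MMP9, the gelatinase of neutrophils and macrophages, was 9.03-fold lower in BAT (log2FC -3.18, SE 0.68, edgeR adjusted p = 0.000191). Its counts were low throughout, 0 to 12 reads in the BAT libraries and 8 to 93 in the thyroid libraries, both BAT controls had none, and it was lower in BAT in 12 of 14 lambs. The contrast gives the 3 groups of a tissue equal weight, so the fitted size of MMP9 leans on the BAT controls without reads. Its median log2 ratio within lambs was -2.26, and its median per kilobase 1.94 in BAT and 6.98 in thyroid tissue. TIMP2 was lower in BAT with a log2FC of -1.31 (SE 0.35, edgeR adjusted p = 0.00181) and lower in 10 of 14 lambs. AGRN, agrin, had 151, 317 and 674 normalized counts per kilobase in BAT and 353, 814 and 1032 in thyroid tissue (log2FC -1.14, SE 0.15, edgeR adjusted p = 2.14e-07). Its ranges overlapped between lambs, but not within any lamb. TIMP3, at a log2FC of -0.76 (edgeR adjusted p = 0.000704), lay under the fold threshold. The annotated exons of TIMP2 and TIMP3 add up to 663 and 636 bases, and how this bears on their level per kilobase against that of other genes was not tested.

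**Figure D2:**
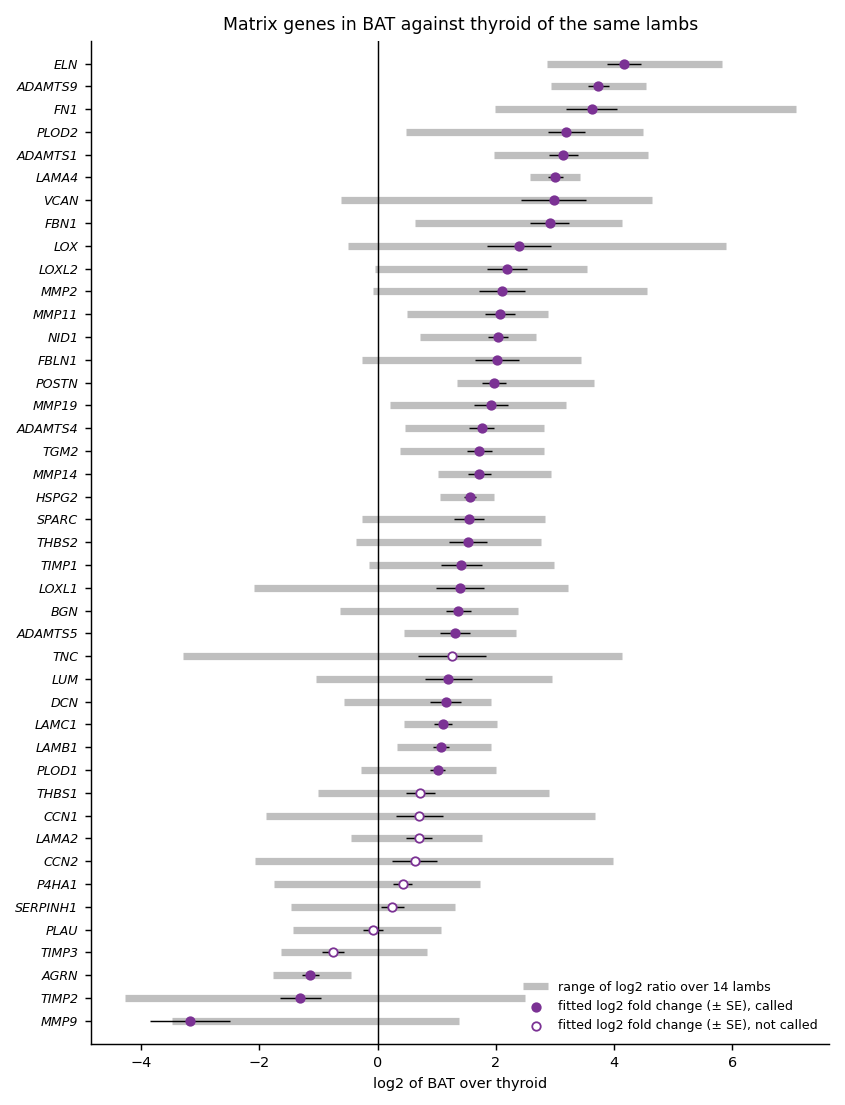
Log2 of BAT over thyroid (x axis) for the 43 matrix genes (y axis, ordered by the fitted value): circles are the fitted log2FC with its SE, filled where called, and grey bars the range of the ratio over 14 lambs. ELN is highest at 4.17 and MMP9 lowest at -3.18, and 18 bars lie wholly to the right of 0.

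How far the set varied between lambs of a group differed by gene. The SD of log2 normalized counts, pooled over the AT and cold lambs, was lowest for HSPG2, perlecan, with 0.20 in BAT and 0.16 in thyroid tissue. It was 0.26 and 0.17 for LAMA4. The highest values were those of LOX, a lysyl oxidase, with 0.98 in BAT, and of TNC, tenascin C, with 1.56 in thyroid tissue, against a median of 0.55 and 0.57 for the set.

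In BAT of AT lambs, 6 matrix genes were called lower than in controls and 0 higher, at a background of 3.21% of 14905 genes called lower and 2.86% called higher. They were P4HA1 and SERPINH1 of collagen modification and folding, ADAMTS1 and ADAMTS4, TIMP3, and CCN2. Of the 42 tested, 19 had a positive and 23 a negative log2FC, with a median of -0.05 against -0.03 over all genes, and 17 had an unadjusted p below 0.05. In cold lambs 1 matrix gene was called lower, P4HA1, and 0 higher, at a background of 0.637% and 0.577%. The same counts of sign were found, 19 and 23, with a median of -0.12 against -0.10 over all genes, and 10 had an unadjusted p below 0.05. Over all genes, 26% had such a p in AT and 18.1% in cold lambs. The groups did not overlap for 3 matrix genes higher and 13 lower in AT lambs, where 8.96% and 15.3% of all genes did not overlap. In cold lambs this was so for 4 higher and 9 lower, against 8.89% and 15.7% of all genes.

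**Figure D3:**
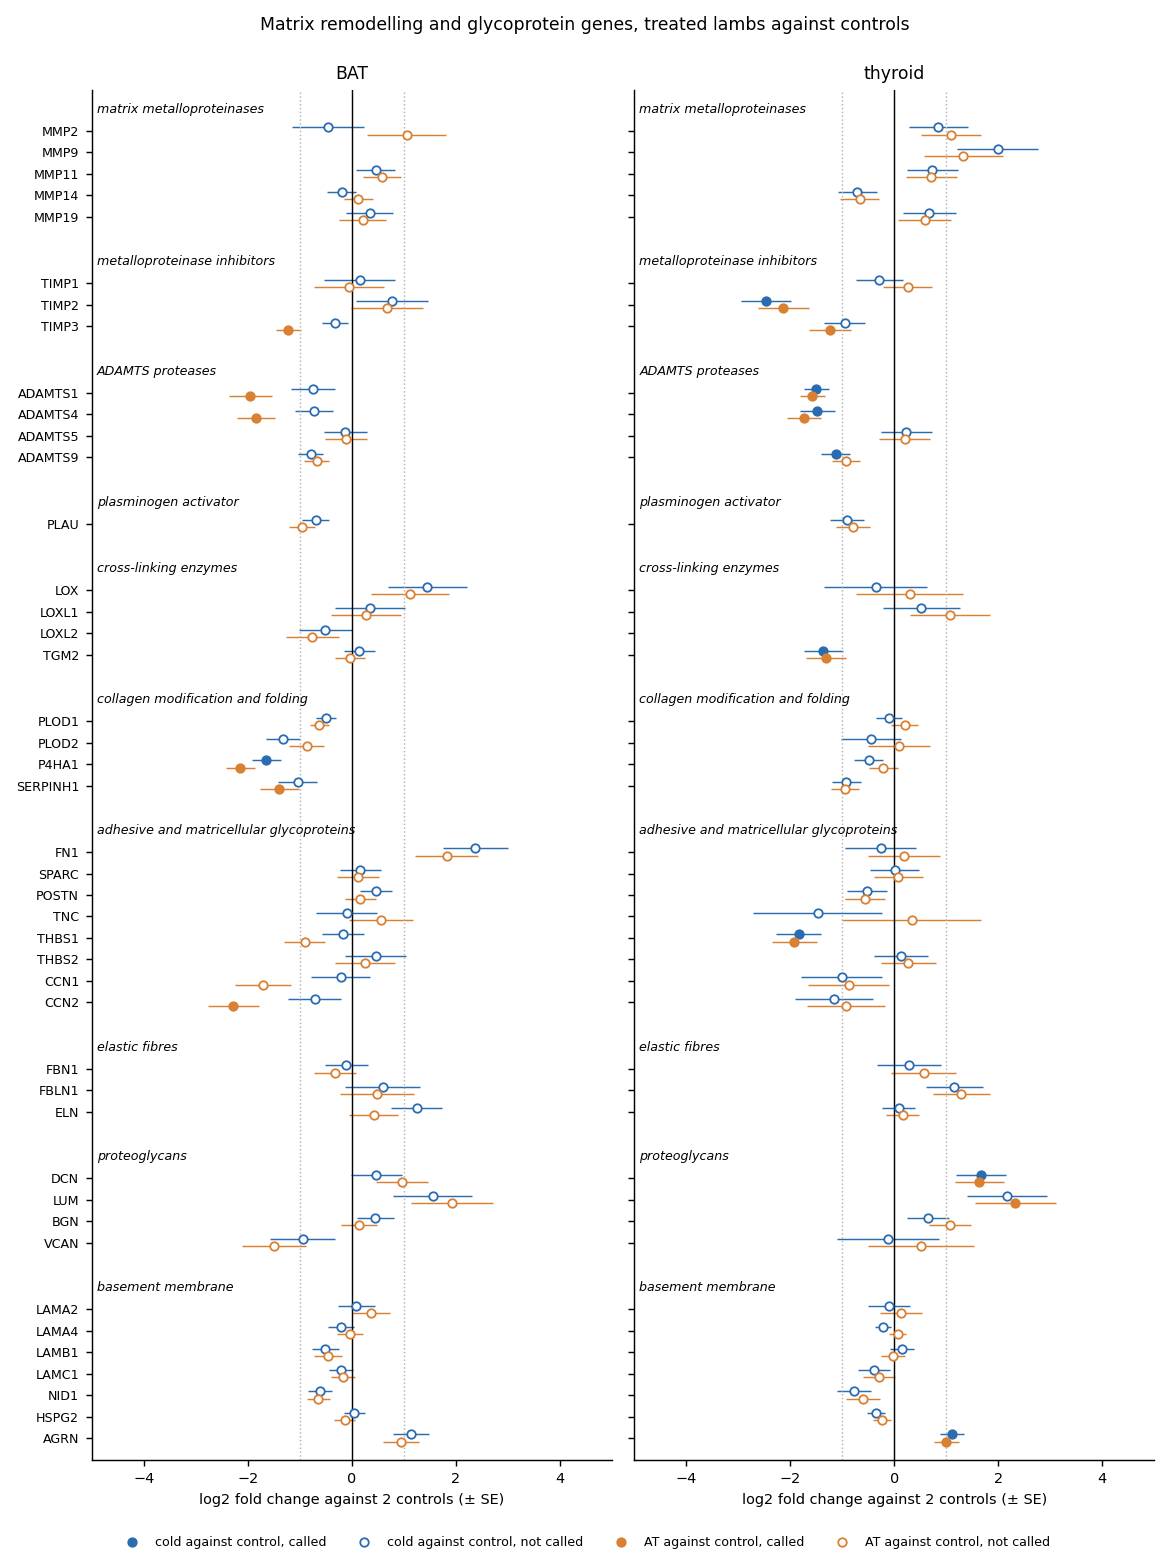
Log2FC with its SE (x axis) of AT lambs (orange) and cold lambs (blue) against controls 1 and 3 in BAT (left) and thyroid tissue (right), for the matrix genes by role, with filled circles where called and dotted lines at a log2FC of 1 in either direction. In BAT the filled circles are all to the left of 0, while in thyroid tissue DCN, LUM and AGRN have filled circles to the right. MMP9 in BAT and LOXL2 in thyroid tissue were not tested.

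All 4 collagen modification genes had a negative log2FC in both treated groups in BAT, also under TMM. P4HA1, a subunit of the prolyl hydroxylase that makes collagen helices stable, had normalized counts of 1372 and 1584 in the controls. The AT lambs had 245, 309 and 471 as lowest, median and highest value, and the cold lambs 278, 455 and 700. All 12 treated lambs lay below both controls. P4HA1 fell 4.42-fold in AT lambs (log2FC -2.14, SE 0.28, edgeR adjusted p = 0.000683) and 3.12-fold in cold lambs (log2FC -1.64, SE 0.28, edgeR adjusted p = 0.0127). Control 2, at 1734, was on the side of the other controls. The call in AT lambs was the only one of the 24 that was kept in every alternative fit, with log2FC values of -2.26 to -2.02. The call in cold lambs was lost without control 1 (-1.76) and without control 3 (-1.54).

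SERPINH1, the collagen chaperone HSP47, had 7700 and 7587 in the controls, 1609, 2554 and 5559 in AT lambs and 2318, 3238 and 5511 in cold lambs. All treated lambs were again below the controls. It was called in AT lambs (log2FC -1.40, SE 0.37, edgeR adjusted p = 0.0279) and not in cold lambs (log2FC -1.04, edgeR adjusted p = 0.152), and the AT call was lost under TMM (-1.26), without control 1 (-1.38), control 3 (-1.39), AT 1 (-1.32) or AT 3 (-1.26). Both lysyl hydroxylases were also negative, chosen for mention after their values were seen. PLOD1 had a log2FC of -0.62 in AT lambs (edgeR adjusted p = 0.0482), which is under the fold threshold. PLOD2 had one of -1.33 in cold lambs (edgeR adjusted p = 0.0555), with 878 and 1042 in the controls and at most 497 in cold lambs. DESeq2 called PLOD2 lower there (DESeq2 adjusted p = 0.0124).

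Of the proteases, ADAMTS1, which cuts versican and other proteoglycans, had 2516 and 3269 in the BAT controls. AT lambs had 564, 653 and 1250, and cold lambs 812, 1428 and 3049. The AT lambs were all below the controls, whereas the cold lambs reached into the control range. In AT lambs the gene fell 3.87-fold (log2FC -1.95, SE 0.41, edgeR adjusted p = 0.0106), and in cold lambs the log2FC was -0.75 (edgeR adjusted p = 0.374). ADAMTS4, an aggrecanase, had 513 and 243 in the controls, 68.8, 99.3 and 149 in AT lambs and 152, 196 and 432 in cold lambs. This is the same order, with the AT lambs below both controls and the cold lambs partly among them. Its log2FC was -1.84 in AT lambs (SE 0.36, edgeR adjusted p = 0.00767) and -0.73 in cold lambs (edgeR adjusted p = 0.311). The ADAMTS1 call was lost without control 1 (-2.12) and without control 3 (-1.73), and the ADAMTS4 call without control 1 (-1.21). ADAMTS9 was below both controls in all treated lambs without being called (log2FC -0.79 in cold and -0.68 in AT lambs, edgeR adjusted p = 0.0977 and 0.0923), and ADAMTS5 had values of -0.13 and -0.11.

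TIMP3, the inhibitor that is bound to the matrix and also blocks ADAMTS proteases, had 639 and 570 in the BAT controls. It had 171, 281 and 300 in AT lambs and 346, 496 and 610 in cold lambs. The AT lambs lay below every control and every cold lamb. TIMP3 fell 2.34-fold in AT lambs (log2FC -1.22, SE 0.24, edgeR adjusted p = 0.00767) and had a log2FC of -0.32 in cold lambs (edgeR adjusted p = 0.52). With all 3 controls the AT value was -3.27, since control 2 had 6491, and the call was lost without control 1 (-1.14) and without control 3 (-1.29). TIMP1 and TIMP2 were not called in BAT, with log2FC values between -0.05 and 0.76.

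CCN2, connective tissue growth factor, a matricellular protein and target of TGF-beta and YAP signalling, had 948 and 1135 in the BAT controls. AT lambs had 125, 168 and 389, and cold lambs 233, 514 and 1222. All AT lambs were below both controls, and the cold lambs spanned the control values. CCN2 fell 4.86-fold in AT lambs (log2FC -2.28, SE 0.49, edgeR adjusted p = 0.0129), with -0.71 in cold lambs (edgeR adjusted p = 0.492). The call was lost without control 1 (-2.40) and without control 3 (-2.12), and control 2 was lower than the others with 404. Its relative CCN1, named after its values were seen, had 2221 and 1648 in the controls and 343, 593 and 834 in AT lambs, a log2FC of -1.71 that did not pass (edgeR adjusted p = 0.0585). DESeq2 called CCN1 lower in AT lambs (DESeq2 adjusted p = 0.0215).

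Other members had positive values. FN1 had 1258 and 1748 in the BAT controls, 2849, 3894 and 10094 in AT lambs and 4392, 5160 and 15818 in cold lambs. Although all 12 treated lambs were above both controls, FN1 was not called (log2FC 2.37, SE 0.63, edgeR adjusted p = 0.0656 in cold lambs, and 1.82, SE 0.61, edgeR adjusted p = 0.0706 in AT lambs). DESeq2 called it in both, and so did edgeR with all 3 controls (2.42 and 1.88). AGRN had 753 and 1066 in the controls, at least 1366 in every treated lamb, and log2FC values of 1.14 in cold lambs (edgeR adjusted p = 0.0977) and 0.94 in AT lambs (edgeR adjusted p = 0.101). It was called in both under TMM (1.25 and 1.01), and by DESeq2 in cold lambs (DESeq2 adjusted p = 0.0205). ELN had 7883 and 10863 in the controls and 12631, 16292 and 40749 in cold lambs, which lay above both controls without passing the test (log2FC 1.24, edgeR adjusted p = 0.19).

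SPARC, the most abundant, was not called. It had 16756 and 16116 in the BAT controls, 10023, 14795 and 39403 in AT lambs and 12953, 18232 and 23555 in cold lambs. The groups overlapped, with log2FC values of 0.12 and 0.16. DCN and LUM had log2FC values of 0.96 and 1.92 in AT lambs and of 0.47 and 1.55 in cold lambs (edgeR adjusted p of 0.138 or more). DESeq2 called LUM higher in AT lambs (DESeq2 adjusted p = 0.0242). LAMA4, HSPG2 and LAMC1, 3 basement membrane genes, had values of -0.21 to 0.05, and NID1, nidogen, one of -0.64 in AT and -0.62 in cold lambs, chosen after its values were seen. MMP2, gelatinase A, was 608 and 584 in the controls, 215 to 616 in cold lambs and 358 to 4009 in AT lambs, where AT 1 held the highest value and the median was 741.

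The remaining members had no call in BAT. The membrane-bound MMP14 and its relatives MMP11 and MMP19 had log2FC values of -0.20 to 0.58 over both treated groups. The lysyl oxidases ranged from -0.77 (LOXL2 in AT lambs) to 1.45 (LOX in cold lambs), and TGM2 had -0.05 and 0.14. Of the adhesive glycoproteins, POSTN, THBS2 and TNC lay between -0.10 and 0.56 with overlapping groups. FBN1 and FBLN1, of the elastic fibres, had -0.32 to 0.59, and VCAN, versican, -1.49 in AT lambs (edgeR adjusted p = 0.141) and -0.95 in cold lambs. PLAU, named after its values were seen, had 868 and 669 in the controls, 252, 381 and 536 in AT lambs and 396, 439 and 627 in cold lambs. All treated lambs were below both controls, and its log2FC of -0.96 in AT lambs was just under the fold threshold (edgeR adjusted p = 0.0292).

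**Figure D4:**
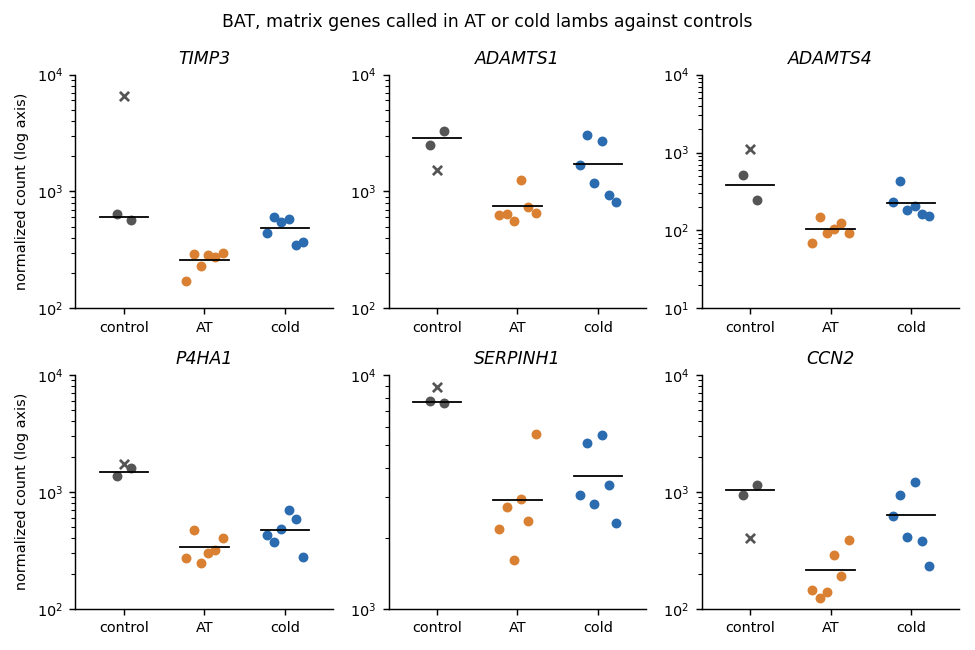
Normalized counts (y axis, log scale) in BAT of the 6 matrix genes called in AT or cold lambs against controls, with 1 point per lamb, a line at the mean of the group, and a cross for control 2, which enters no mean. The AT lambs lie below controls 1 and 3 in all 6 panels, while the cold lambs reach into the range of the controls for TIMP3, ADAMTS1, ADAMTS4 and CCN2.

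Sums of cell type markers in BAT are given for controls, AT lambs and cold lambs in turn. The summed normalized count of 8 mural cell markers ranged from 24311 to 37609 in the BAT controls, from 10505 to 20247 in AT lambs and from 17670 to 34310 in cold lambs. That of 8 endothelial markers ranged from 53353 to 59243, from 34262 to 47967 and from 42688 to 64832. In AT lambs 3 of the 8 mural markers were called lower (ACTA2, TAGLN and KCNJ8) and 1 of the 8 endothelial markers (KDR), with no marker of either list called in cold lambs. For 8 fibroblast markers the sums were 18230 to 21502, 9456 to 22753 and 16050 to 20716, with 0 called. For 8 brown adipocyte markers they were 105427 to 105999, 27110 to 114013 and 48368 to 87712, with FABP4 called lower in AT lambs. The medians in controls, AT and cold lambs were 30960, 15978 and 25293 for mural and 56298, 40963 and 52972 for endothelial markers. They were 19866, 13564 and 19466 for fibroblast and 105713, 71158 and 74559 for brown adipocyte markers. The median in AT lambs was below that of controls 1 and 3 for each of these lists. BAT control 2, which enters none of these values, had 21342 for mural, 15227.5 for endothelial, 10200 for fibroblast and 364400 for brown adipocyte markers. Its endothelial sum lay below those of all AT and cold lambs, and its fibroblast sum below the AT median. Its mural and brown adipocyte sums lay above those of all AT lambs. The part of these cells in the changes of the matrix genes was not tested.

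Cold against AT in BAT compares lambs of the same age. No matrix gene was called, against 0.188% of 14905 genes called higher and 0.0872% called lower in cold lambs. Of the 42 tested, 29 had a positive and 13 a negative log2FC, with a median of 0.18 against -0.05 over all genes, and under TMM 30 and 12. At an unadjusted p below 0.05 there were 9, against 12.3% of all genes, and DESeq2 called 4 of them higher in cold lambs: ADAMTS1, ADAMTS4, CCN1 and CCN2. The shares of all genes in this paragraph are those of edgeR, and the share called by DESeq2 is not given here. The groups did not overlap for 2 matrix genes higher and 0 lower in cold lambs, against 0.537% and 0.154% of all genes. This comparison shares the AT libraries with AT against control.

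TIMP3 was the only one with an edgeR adjusted p below 0.05. The 6 cold lambs had 346 to 610 normalized counts and the 6 AT lambs 171 to 300, with no overlap. It was 1.87-fold higher in cold lambs (log2FC 0.90, SE 0.18, edgeR adjusted p = 0.0418, two-sided exact permutation p = 0.00216, the smallest that 6 against 6 can give), just under the fold threshold. The adjusted p was 0.0955 without AT 1 and 0.144 without AT 3, with log2FC values of 0.81 and 0.88. In the fit with all 3 controls, no gene of the tissue had an edgeR adjusted p below 0.05 for cold against AT, TIMP3 included. ADAMTS4, with 152 to 432 in cold and 68.8 to 149 in AT lambs, also had no overlap (log2FC 1.12, SE 0.28, edgeR adjusted p = 0.112). The remaining values stood at 1.57 for CCN2 (SE 0.39, edgeR adjusted p = 0.116), 1.50 for CCN1 (edgeR adjusted p = 0.17) and 1.21 for ADAMTS1 (SE 0.32, edgeR adjusted p = 0.139), each with overlapping groups. CCN2 was called without AT 6 (1.82, edgeR adjusted p = 0.0447). P4HA1 differed by 0.50 (edgeR adjusted p = 0.369), ELN by 0.83 (edgeR adjusted p = 0.331) and MMP2 by -1.51 (edgeR adjusted p = 0.279). The mural marker sum, as given above, was 17670 to 34310 in cold and 10505 to 20247 in AT lambs, and all 8 mural markers had a positive log2FC (median 0.78) with 0 called.

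In thyroid tissue, more of the set was called than in BAT, and in both directions. In AT lambs 3 matrix genes were called higher (DCN, LUM and AGRN) and 6 lower (TIMP2, TIMP3, ADAMTS1, ADAMTS4, TGM2 and THBS1), at a background of 1.82% of 16122 genes called higher and 5.98% called lower. In cold lambs DCN and AGRN were called higher and TIMP2, ADAMTS1, ADAMTS4, ADAMTS9, TGM2 and THBS1 lower, at a background of 1.89% and 6.15%. The signs were 16 positive and 26 negative in cold lambs, with a median of -0.27 against -0.28 over all genes, and 24 and 18 in AT lambs, with a median of 0.12 against -0.28. In both comparisons 14 of the 42 had an unadjusted p below 0.05, a share near that of all genes, 35.5% in cold and 36.5% in AT lambs. The groups did not overlap for 6 matrix genes higher and 9 lower in cold lambs, against 6.18% and 28.5% of all genes. In AT lambs this was so for 4 higher and 6 lower, against 5.63% and 21.7% of all genes.

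The scaling bears on these directions. Under TMM the median of all genes moved to 0.02 in cold and 0.05 in AT lambs, the calls over all genes went from 305 higher and 991 lower to 456 and 336 in cold lambs and from 294 and 964 to 474 and 270 in AT lambs, and the matrix genes had 21 positive and 21 negative values in cold lambs and 28 and 14 in AT lambs. Of the 17 thyroid calls, TIMP3 in AT lambs (-0.89), ADAMTS9 in cold lambs (-0.87) and TGM2 in cold (-1.04) and AT lambs (-0.97) were lost under TMM, and none changed sign. Without control 3, which leaves 1 control, the THBS1 calls alone passed the test. BGN, biglycan, was called in AT lambs under TMM (1.37).

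TIMP2, an inhibitor that also takes part in the activation of MMP2, had the lowest log2FC of the set. Its normalized counts were 6441 and 12886 in the thyroid controls, 760, 1928 and 3636 in AT lambs and 787, 1860 and 2584 in cold lambs. Every treated lamb was below both controls, and control 2, with 8499, was between them. TIMP2 fell 5.53-fold in cold lambs (log2FC -2.47, SE 0.48, edgeR adjusted p = 0.00591) and 4.38-fold in AT lambs (log2FC -2.13, SE 0.48, edgeR adjusted p = 0.00965). Without control 3 the values were -1.87 and -1.53. TIMP3 had 2477 and 3689 in the controls, 767, 1168 and 2537 in AT lambs and 841, 1522 and 2602 in cold lambs. Its groups overlapped, by AT 3 in the AT group, and it was called in AT lambs alone (log2FC -1.23, SE 0.40, edgeR adjusted p = 0.0403, against -0.96, edgeR adjusted p = 0.105 in cold lambs). That call was lost in every alternative fit other than DESeq2 and some of those leaving out a lamb, with -0.88 when all 3 controls were used, control 2 having 1098.

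The 3 called ADAMTS proteases were lower in both treated groups. ADAMTS1 had 909 and 941 in the controls, 225, 291 and 456 in AT lambs and 253, 325 and 415 in cold lambs. The treated lambs were far below the controls, and control 2 had 686. ADAMTS1 fell 2.97-fold in AT lambs (log2FC -1.57, SE 0.25, edgeR adjusted p = 0.0017) and 2.82-fold in cold lambs (log2FC -1.49, SE 0.25, edgeR adjusted p = 0.00253), and the values were -1.53 and -1.45 without control 3. ADAMTS4 had 371 and 298 in the controls, 66.6, 96.2 and 131 in AT lambs and 68.7, 105 and 185 in cold lambs, with log2FC values of -1.73 (SE 0.33, edgeR adjusted p = 0.00391) and -1.48 (SE 0.34, edgeR adjusted p = 0.0101). Control 2, at 64.8, was below all treated lambs, and with all 3 controls the ADAMTS4 values were -1.28 and -1.04, of which the second was not called. ADAMTS9 had 840 and 493 in the controls and 243, 302 and 380 in cold lambs (log2FC -1.12, SE 0.27, edgeR adjusted p = 0.0135). Without control 1 this was -0.69. In AT lambs its value of -0.93 was under the fold threshold (edgeR adjusted p = 0.0289).

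TGM2, tissue transglutaminase, had 2350 and 3652 in the thyroid controls, 741, 1059 and 2211 in AT lambs and 761, 1104 and 2030 in cold lambs. No treated lamb reached the controls. It fell 2.57-fold in cold lambs (log2FC -1.36, SE 0.38, edgeR adjusted p = 0.0236) and 2.48-fold in AT lambs (log2FC -1.31, SE 0.38, edgeR adjusted p = 0.0254), but control 2 had 566, and with it neither was called (-0.91 and -0.85). THBS1, thrombospondin 1, an inhibitor of vessel growth that also activates latent TGF-beta, had 6329 and 1820 in the controls, 486, 1050 and 1782 in AT lambs and 730, 1016 and 1755 in cold lambs. Control 3 was only just above the highest treated lambs, and control 2 had 1240. Control 1 was also the thyroid control with 294591 summed counts of skeletal muscle markers. THBS1 was called in both groups (log2FC -1.84, SE 0.43, edgeR adjusted p = 0.0119 in cold lambs, and -1.92, SE 0.43, edgeR adjusted p = 0.00836 in AT lambs) on control 1, without which its values were -0.68 and -0.76. Its exons share 416 bases with FSIP1 on the opposite strand, and whether the counting used the strand is not given in the sources used here. SERPINH1 passed on the adjusted p alone, with -0.92 in cold and -0.95 in AT lambs, and its controls were wide apart at 7941 and 21151.

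DCN, decorin, and LUM, lumican, small proteoglycans that regulate collagen fibril width, had higher values in the treated lambs. DCN had 3267 and 1620 in the thyroid controls, 4567, 5918 and 13432 in AT lambs and 5237, 7419 and 12513 in cold lambs. All 12 treated lambs were above controls 1 and 3, whereas control 2, with 8682, was in their midst. DCN rose 3.18-fold in cold lambs (log2FC 1.67, SE 0.47, edgeR adjusted p = 0.0265) and 3.11-fold in AT lambs (log2FC 1.64, SE 0.47, edgeR adjusted p = 0.026). Neither was called with all 3 controls (0.78 and 0.75) or without control 3 (1.27 and 1.23). LUM had 421 and 323 in the controls, 820, 1112 and 4508 in AT lambs and 698, 1578 and 3149 in cold lambs, and its groups did not overlap. It rose 5.02-fold in AT lambs (log2FC 2.33, SE 0.78, edgeR adjusted p = 0.0492), a call close to the threshold that many alternatives lost, and was not called in cold lambs (log2FC 2.17, SE 0.77, edgeR adjusted p = 0.0636).

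AGRN, which lies in the basement membrane, had 5797 and 4431 in the thyroid controls, 6720, 10009 and 13163 in AT lambs and 9422, 11096 and 12644 in cold lambs. Every treated lamb was above every control, control 2 (3315) included. AGRN rose 2.16-fold in cold lambs (log2FC 1.11, SE 0.24, edgeR adjusted p = 0.00762) and by a log2FC of 1.0 in AT lambs (SE 0.24, edgeR adjusted p = 0.0102). The AT value was at the fold threshold and fell below it in several leave-one-out fits (0.83 without control 3), and the cold value did so without control 3 (0.95). The other 6 basement membrane genes had log2FC values between -0.77 and 0.15 and no call. Of the matrix metalloproteinases MMP9 had 11.9 and 10.6 in the controls, 13.8, 45.8 and 93.4 in cold lambs and 8.57, 23.8 and 49.6 in AT lambs. The cold lambs were above both controls without passing the test (log2FC 1.99, SE 0.78, edgeR adjusted p = 0.084), while DESeq2 called it (adjusted p = 0.0396).

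By role, all 4 proteoglycans had a positive log2FC in AT lambs and 3 of 4 in cold lambs, with a median of 1.35 and 1.16, and under TMM all 4 were positive in both. BGN had 1463 and 1490 in the controls and 2158, 2580 and 6220 in AT lambs, which lay above both without passing (log2FC 1.07, edgeR adjusted p = 0.074) but was called by DESeq2. FBLN1, fibulin 1, had 1.29 in AT and 1.16 in cold lambs, also without passing (edgeR adjusted p = 0.105 and 0.144), and DESeq2 called it in AT lambs. The abundant SPARC had 10366 and 20111 in the controls and overlapped with both treated groups, at log2FC values of 0.08 and 0.01. ELN had 0.16 and 0.08. MMP2, MMP11, MMP14 and MMP19 ranged from -0.71 to 1.09, LOX and LOXL1 from -0.36 to 1.07, and FN1, POSTN, THBS2, CCN1 and CCN2 from -1.15 to 0.27, with no call among them. TIMP1, ADAMTS5, PLOD1, PLOD2, FBN1 and VCAN lay between -0.44 and 0.56. PLAU had -0.91 in cold and -0.79 in AT lambs (edgeR adjusted p = 0.0626 and 0.0932).

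**Figure D5:**
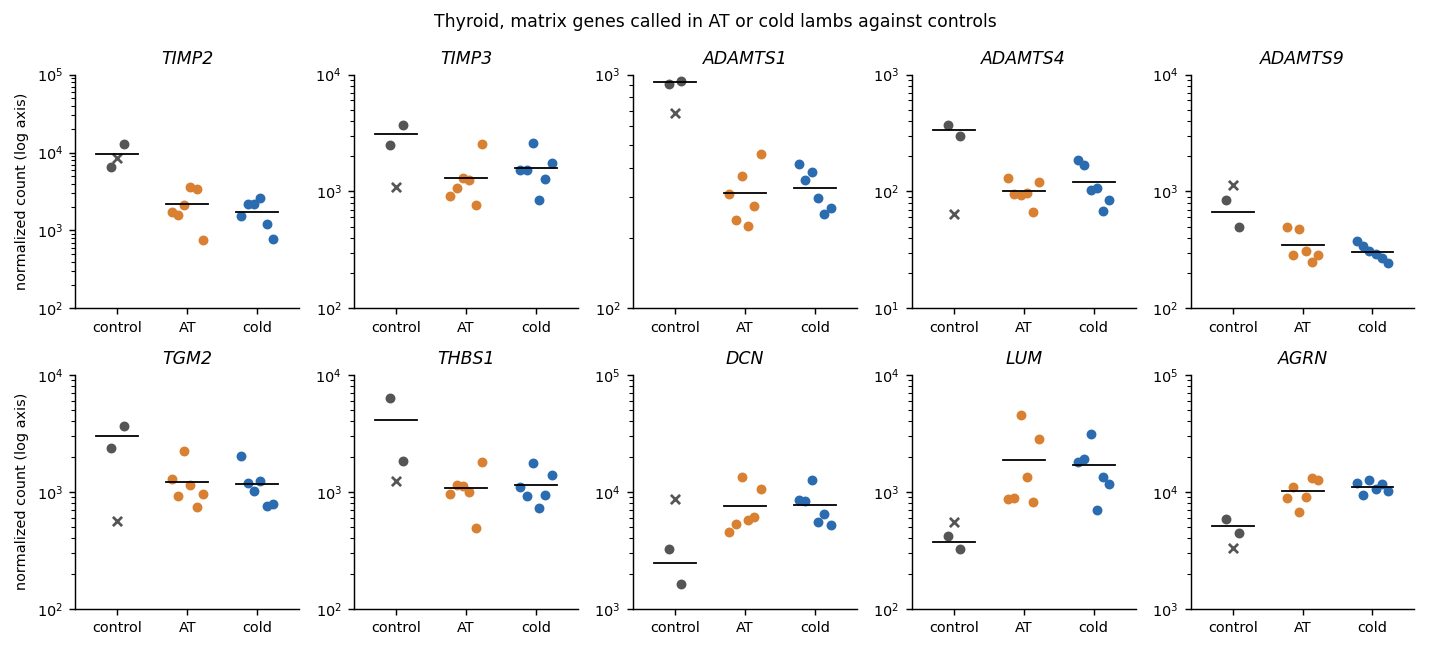
Normalized counts (y axis, log scale) in thyroid tissue of the 10 matrix genes called in AT or cold lambs against controls, with 1 point per lamb, a line at the mean of the group, and a cross for control 2, which enters no mean. AT and cold lambs overlap in all 10 panels, and control 2 lies apart from the other controls, among the treated lambs or beyond them, for TIMP3, ADAMTS4, TGM2, THBS1 and DCN.

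Sums of cell type markers in thyroid tissue are given in the same order of groups. The summed normalized count of 8 endothelial markers was 25860 to 37726 in the thyroid controls, 13826 to 26519 in AT lambs and 15434 to 21126 in cold lambs, and PECAM1 was called lower in both groups and CDH5 in cold lambs. That of 5 macrophage markers was 1136 to 1247, 1608 to 2974 and 1804 to 3947, without overlap, and C1QA and AIF1 were called higher in both groups and CSF1R in cold lambs. The sums of 8 fibroblast markers were 7425 to 10858, 7538 to 15608 and 7421 to 11751 with 0 called, those of 8 mural markers 11179 to 17737, 9357 to 20107 and 8846 to 14087 with TAGLN called lower in both, and those of 8 follicular markers 2858610 to 5801540, 1320600 to 2410080 and 1786020 to 2698860. Among the follicular markers TG was called lower in AT lambs. Control 2, which enters none of these ranges, had 14091 for endothelial, 1578 for macrophage, 7156 for fibroblast, 5037 for mural and 1923280 for follicular markers. Its endothelial and follicular sums lay within the ranges of the treated lambs. The part of these cells in the matrix values was not tested. Without AT 3, the library with the highest sum of skeletal muscle markers, 12 matrix genes were called in AT lambs and 9 in cold lambs. The share of all genes called in that fit is not given here. DCN was then at 1.39 and LUM at 1.84 in AT lambs, and ADAMTS9 (-1.04), PLAU (-1.03) and SERPINH1 (-1.11) were added in AT lambs.

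Between cold and AT lambs no matrix gene was called in thyroid tissue by edgeR or DESeq2. Of all 16122 genes 0% were called higher and 0% lower by edgeR, and 870 had an unadjusted p below 0.05. In the set only LAMA4 did, with 2126, 2664 and 2965 in AT and 1985, 2032 and 2437 in cold lambs (log2FC -0.28, SE 0.11, edgeR adjusted p = 0.911, two-sided exact permutation p = 0.026). TIMP1, the secreted inhibitor of most metalloproteinases, had 562, 1090 and 1664 in AT and 379, 642 and 1432 in cold lambs. Its groups overlapped, and it did not pass (log2FC -0.55, SE 0.33, edgeR adjusted p = 0.923). No gene of the set had groups without overlap, where 0.118% of all genes were higher and 0.0744% lower without overlap. The signs were 13 positive and 29 negative, with a median of -0.13 against 0.00 over all genes. TNC had a log2FC of -1.81 (SE 0.96), of which AT 3 held the highest value, 774 against 16.2 to 55.0 in the other AT lambs, and its exons share 276 bases with LOC114112922 on the opposite strand.

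Whether a change differed between the tissues was tested in the fit over both. The AT against control change differed for 1 of 43 matrix genes, against 1.66% of 17021 genes with an edgeR adjusted p below 0.05. This was P4HA1, which had thyroid values of 1574 and 1200 in the controls, 777, 1100 and 2139 in AT lambs and 856, 993 and 1104 in cold lambs. Its fall in BAT was not seen at that size in thyroid tissue, where the log2FC was -0.21 in AT and -0.49 in cold lambs, neither of them called. The change in BAT was lower by 1.90 on the log2 scale (SE 0.44, edgeR adjusted p = 0.0259). With lamb as a block the difference was -1.84 and did not pass (edgeR adjusted p = 0.053), nor did it without control 1 (-2.18) or control 3 (-1.60). The cold against control change differed for 0 of 43 matrix genes by edgeR, against 0.188% of all genes. At an unadjusted p below 0.05 there were 5, against 1999 of the 17021 genes. For cold against AT it was 0 of 43, against 0% of all genes. Here 6 had an unadjusted p below 0.05, against 1339 of the 17021 genes. For ADAMTS1, ADAMTS4 and TIMP3, called lower in AT lambs in both tissues, the difference was -0.33 (SE 0.55), -0.07 (SE 0.55) and 0.06 (SE 0.49), none of them past the test.

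Other matrix genes were read from lists of named genes. Among 39 further proteases, inhibitors and cross-linkers, of which 34 were tested in BAT, 5 were called higher and 4 lower in AT lambs and 2 higher in cold lambs. ADAMTS6 (log2FC 1.73 in AT and 2.04 in cold lambs) and MMP28 (1.58 and 1.48) were called higher in both, TLL1 (2.19), FAP (1.45) and ADAMTS7 (1.75) in AT lambs, and LOXL4 (-2.16), TIMP4 (-1.34), ADAMTS12 (-1.32) and MMP16 (-1.10) were called lower in AT lambs. The protease calls in BAT were in both directions, with ADAMTS1 and ADAMTS4 lower and ADAMTS6 and ADAMTS7 higher. In thyroid tissue, with 35 tested, 1 was called higher and 3 lower in AT lambs, and 1 higher and 4 lower in cold lambs. They included P4HB, the partner subunit of P4HA1 (-1.51 in AT and -1.41 in cold lambs), PLAT, tissue plasminogen activator (-1.42 and -1.25), ADAMTS12 (-1.19 and -1.32) and LOXL3, a lysyl oxidase (1.18 and 1.19).

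Of 38 further glycoproteins and proteoglycans, 34 were tested in BAT, where 1 was called higher and 3 lower in AT lambs and none in cold lambs. These were CCN5 (log2FC 3.82), TINAGL1 (-2.08), ECM1 (-1.44) and LAMC3 (-1.18). CCN5 had at most 10 reads in every BAT control. TINAGL1 was the only one called in cold against AT (1.21), where no gene was called with all 3 controls. In thyroid tissue 2 of 35 were called higher and 2 lower in AT lambs and 3 higher and 2 lower in cold lambs: PRELP (1.55 in AT and 1.61 in cold lambs), MFAP4 (1.75 and 1.40) and, in cold lambs, FMOD (2.11) were higher, and PXDN (-1.54 and -1.71) and TINAGL1 (-1.31 and -1.21) lower. PRELP and FMOD belong to the small leucine-rich proteoglycans, as do DCN and LUM. Of 17 collagen chains 0 were called in BAT of cold lambs and COL4A1 (-1.0) and COL4A2 (-1.03), of the basement membrane, were called lower in AT lambs, though not under TMM. In thyroid tissue COL1A1, COL1A2, COL3A1 and COL16A1 were called higher in both groups, with log2FC values of 1.47 to 2.78 in AT and 1.48 to 2.88 in cold lambs.

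Signalling genes that act on the matrix were also read from lists. Of 19 genes of the TGF-beta pathway, SMAD7, its inhibitor (log2FC -1.73), and ENG, endoglin (-1.25), were called lower in BAT of AT lambs and higher in cold than in AT lambs (1.40 and 1.40). In BAT, 0.188% of all genes were called higher in cold than in AT lambs, and no gene was with all 3 controls. In thyroid tissue of AT lambs SMAD7 (-1.03) and TGFBI (-1.90) were called lower, though not under TMM, and none was called in cold lambs of either tissue against controls. Of 20 matrix receptors, ITGA1 (-1.12) and ITGA2 (-1.50) were called lower in BAT of AT lambs. In thyroid tissue ITGA5 (-1.28 in AT and -1.33 in cold lambs) and ITGB3 (-1.28 and -1.01) were called lower in both groups, and SDC4 (-1.12) and ITGB5 (-1.27) in AT lambs, of which none was called under TMM in AT lambs. Of 12 targets of YAP and TEAD other than CCN1 and CCN2, 11 were tested in BAT: AJUBA (-2.02) and AMOTL2 (-1.51) were called lower and NUAK2 (1.16) higher in AT lambs, AJUBA was higher in cold than in AT lambs (1.25), and 10 of the 11 had a negative log2FC in AT against control, also under TMM. None of them was called in thyroid tissue.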

How the data were processed

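BAT and thyroid RNA of 15 lambs (30 libraries) had been extracted with TRIzol, enriched for mRNA with oligo(dT) and sequenced as paired ends of 150 bases. The deposited values are raw read counts per gene, which the authors made with FastQC 0.11.9, Trimmomatic 0.39, STAR 2.7.7a (Oar_rambouillet_v1.0) and featureCounts of Subread 2.0.0. Reads that map to several places were counted, which can raise genes with close copies, and the strand setting is not given in the sources used here. Total counts per library were 25062784 to 37025998, so that low genes such as MMP9 are less precise.

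Groups came from the labels. The controls are numbered in accession order, and control 2 was identified as the library missing from the study's own normalized table by matching counts. Each tissue was tested over the genes that reached 10 reads in 10 or more of its libraries, with edgeR 4.0.16 (quasi-likelihood, robust; R 4.3.3), all groups in one fit, and over 28 libraries for BAT against thyroid and for differences between tissues. Size factors came from ACTB, RPL19 and HUWE1 (DESeq2 1.42.0), and p-values were adjusted by Benjamini-Hochberg over all genes tested. Exact permutation tests were two-sided over 924 splits for 6 against 6, and over 28 for 2 against 6, which cannot go below 0.0357. SDs use log2(normalized count + 1). The p-values measure the spread between lambs.

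Lambs gave both tissues, so lamb pairs the libraries. The deviations of a lamb's BAT and thyroid libraries from their group means correlated at 0.0456 to 0.327 (median 0.222, 13 of 14 lambs over 0.1), and the fit with lamb as a replicate block was an alternative. The other alternatives were TMM and median-of-ratios scaling, DESeq2, all 3 controls, no filter, RNA integrity as a covariate, only the 2 groups compared, an adjusted p alone, and each lamb left out. Control 2 in place of control 1 or 3 was added after seeing the data. Fits were tested on simulated data. Any 2 libraries of a group differed beyond counting noise (chi-square per degree of freedom of 38.33 or more).

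The members and lists were chosen with earlier results of these data known. Named in full were members called in a treatment comparison, the 3 with the lowest unadjusted p for cold against AT in each tissue, the 3 with the highest level per kilobase in each tissue, and the 3 with the largest tissue difference in each direction. Genes outside the set are named from fixed lists where called. The result of 1 gene of the marker lists is not reported here.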

Additional observations from a re-analysis of the deposited data

Results flagged for a closer look

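Among the AT and cold groups of the genes given in full or described, on the log2 scale, 6 of 104 groups had 1 lamb far from the other 5, where chance gives about 1 in 20. In thyroid tissue 4 of these lambs were AT 3, the library with the highest sum of skeletal muscle markers. Its normalized counts were 1477 for PLOD1 (788 to 956 in the other AT lambs), 533 for PLOD2 (95.2 to 164), 11408 for SERPINH1 (6465 to 6935) and 774 for TNC (16.2 to 55.0). In BAT, AT 4 had 1250 for ADAMTS1 (564 to 737 in the other AT lambs) and AT 6 had 39403 for SPARC (10023 to 16428).

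The AT against control change of P4HA1 differed between the tissues, by -1.90 on the log2 scale as BAT minus thyroid (edgeR adjusted p = 0.0259). What lies behind these values was not tested.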

How the results depend on the processing

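No call changed direction in any alternative. Of the 24 calls, DESeq2 kept 24, TMM and median-of-ratios scaling 19 each, all 3 controls 18, RNA integrity as a covariate 21, no filter 22, only the 2 groups compared 18, and control 2 in place of control 1 or 3 14 each. Outside the fits that leave out a lamb, 9 were kept throughout. The call of P4HA1 in BAT of AT lambs was kept in every fit run.

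In BAT cold against control, the 1 gene called became 2 with TMM, 2 with median-of-ratios scaling, 4 with DESeq2, 9 with all 3 controls, 2 with only the 2 groups compared, 8 and 11 with control 2 in place of control 1 and control 3, and 0 to 4 when each lamb was left out. In BAT AT against control, 6 became 11 with all 3 controls, 10 with control 2 in place of control 1, and 1 to 7 when each lamb was left out. In BAT cold against AT, 0 became 4 with DESeq2, 1 with an adjusted p alone, and 0 to 1 when each lamb was left out. In thyroid tissue, 8 in cold and 9 in AT lambs became 1 to 10 and 1 to 12 when each lamb was left out, lowest without control 3, and the 9 became 4 with only the 2 groups compared. The calls over all genes shifted as well. In BAT of cold lambs they went from 86 higher and 95 lower to 404 and 323 with all 3 controls. They were 227 and 91 with TMM and 222 and 102 with median-of-ratios scaling. In BAT of AT lambs they went from 426 and 478 to 858 and 446 with all 3 controls. For cold against AT in BAT they went from 28 higher and 13 lower to 0 and 0 with all 3 controls. For the other alternatives the share of all genes is not given here. The cause of these shifts was not tested.

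With lamb as a replicate block, BAT against thyroid had 35 genes called in place of 34, and the 1 gene whose AT change differed between tissues became 0, with P4HA1 at -1.84. That count was 2 with TMM and 0 to 2 when each lamb was left out. The block changed no other count past 1.5 times. With 2 controls, leaving out 1 leaves a lone control that is assumed to vary like the other groups. At a low count, as for MMP9, depth limits what could be detected.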
